A study of Mus musculus with 36 samples.

Results

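The comparison described here is that of injured with uninjured bronchoalveolar lavage fluid (BALF, the fluid recovered by rinsing the airspaces of the lung) after 6 h of exposure of cultured mouse lung pericyte-like cells. Its members are the 12 libraries whose column names mark either fluid and that time, 6 of injured and 6 of uninjured BALF, out of 36 in the series. Each arm held 3 female and 3 male libraries, and sex was kept as a balanced term. The cells were grown out of mouse lung digests, depleted of cells carrying CD31, CD45 or CD326 (surface proteins of endothelium, leukocytes and epithelium) and then selected for PDGFRβ. All arms received reduced-serum medium (DMEM/F12 with 2.5% FBS, 1% ITS and antibiotics) in an equal mixture with the test fluid. That fluid was uninjured BALF, injured BALF or, in the 6 libraries of media only at 6 h used here as background, sterile PBS. The labels give no strain, age or genotype of the mice, and not the kind of injury. Nothing in them tells if the libraries of 1 group stem from different mice or dishes, so p-values measure only the spread between these samples, which may be technical.

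Pericytes are mural cells that wrap capillaries and share many transcripts with fibroblasts and smooth muscle. PDGFRβ is carried by pericytes and by other lung mesenchymal cells, so the selection does not define pericytes alone. Lavage fluid of an injured lung can carry plasma proteins, cytokines and material from dying cells. Many such signals end in NF-kB, a family of transcription factors held in the cytoplasm by IkB proteins. When IkB is degraded NF-kB enters the nucleus and induces chemokines, adhesion molecules and also its own inhibitors.

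Promoters of 6 genes that were higher in injured BALF are shown because they hold the NF-kB-like letters that were most frequent in the genes called higher. The motif searched was GGNNTTTCC on both strands, in the 250 bases before each RefSeq start site (GRCm38.p6), and capitals mark every match in the stretch shown. The stretches, all in the direction of the gene, lie at chr5:90891141-90891198 (Cxcl1, plus strand), chr5:90903788-90903845 (Cxcl2, plus), chr5:90786014-90786052 (Cxcl3, plus), chr5:30013056-30013094 (Il6, plus), chr9:21015772-21015879 (Icam1, plus) and chr10:19015411-19015449 (Tnfaip3, minus).
Cxcl1: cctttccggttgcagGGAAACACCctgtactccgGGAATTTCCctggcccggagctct
Cxcl2: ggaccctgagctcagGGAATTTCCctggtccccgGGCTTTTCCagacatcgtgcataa
Cxcl3: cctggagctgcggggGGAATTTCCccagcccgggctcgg
Il6: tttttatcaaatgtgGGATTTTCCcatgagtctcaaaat
Icam1: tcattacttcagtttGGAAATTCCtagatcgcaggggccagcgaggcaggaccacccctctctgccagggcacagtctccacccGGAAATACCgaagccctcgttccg
Tnfaip3: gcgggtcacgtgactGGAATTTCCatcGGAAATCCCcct
The first match began 89 bases before the start site in Cxcl1, 96 in Cxcl2, 72 in Cxcl3, 43 in Il6, 153 in Icam1 and 24 in Tnfaip3.

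Promoters were matched by gene symbol for 11132 of the 15900 gene symbols tested, which have 14208 promoters in the table. The NF-kB-like letters stood in 16.9% of 261 promoters of genes called higher, in 2.39% of 251 promoters of genes called lower and in 5.26% of all promoters of tested genes. The AP-1-like letters TGANTCA, which can overlap the antioxidant-element-like letters TGACNNNGC, stood in 14.2%, 6.37% and 4.94% of the same sets. TGACNNNGC itself stood in 7.66% of promoters of genes called higher and 11.2% of those called lower, against 11.5% of all. The interferon-element-like letters TTTCNNTTT stood in 9.58% and 4.38%, against 7.09% of all. The sterol-element-like letters TCACNCCAC were rare, at 0.766% and 1.59%, against 1.03% of all. Among the lists described below, the NF-kB-like letters stood in 3 of 5 promoters of neutrophil CXC chemokines, 5 of 19 of NF-kB subunits and IkB proteins, 5 of 22 of inflammatory brakes and 2 of 8 of leukocyte adhesion genes. The TTTCNNTTT letters stood in 17 of 33 promoters of interferon-stimulated genes, TGACNNNGC in 7 of 32 of NRF2 targets and TCACNCCAC in 1 of 20 of sterol genes. These are matches of letters, not measured binding.

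The 12 libraries held 17134840 to 30158496 counts. Within each of the 4 groups, libraries numbered 1 and 2 were close (biological coefficient of variation 7.49 to 11.5%), and either stood 23.6 to 25% from number 3. Same-numbered injured and uninjured libraries also deviated together. Results are therefore given beside 2 other fits where these change the call. In the summed fit libraries 1 and 2 of each group were added into 1, and in the blocked fit the replicate number was a term within the 12 libraries. The summed and blocked fit, chosen after seeing the data, joins both. Pericyte marker genes summed to 627 to 1250 CPM (a gene's counts relative to the TMM-scaled total of its library) in injured and 907 to 1420 in uninjured BALF, and fibroblast markers to 1040 to 1340 and 1150 to 1500. Macrophage markers lay at 55.5 to 81.4 and 54.4 to 80.5 CPM, neutrophil markers at 1.59 to 4.41 and 0.916 to 2.54, and endothelial markers at 62.2 to 259 and 76.6 to 278. Smooth muscle markers ran from 1490 to 2940 and 1660 to 3220 CPM (injured, then uninjured). These ranges overlap. Within same-numbered pairs the injured library was the lower in 6 of 6 for the pericyte, fibroblast, smooth muscle, endothelial and mesothelial sums. It was the higher in 6 of 6 for the neutrophil sum. Libraries 1 and 2 being close, these pairs cannot be taken as independent. Abundant genes weigh most in a sum, and members differed. Dcn (fibroblast) was higher in 6 of 6 pairs, Cspg4 (pericyte) in 4 and Pecam1 (endothelial) in 3. Cd248 (pericyte) and Lmod1 (smooth muscle) were lower in all 6. None of the measured pericyte (10 of 13), fibroblast (10 of 11), endothelial (10 of 10) or neutrophil (3 of 10) markers was called. Of all genes tested 3.4% were. Against the pericyte label, Higd1b was at 0 in all 12 libraries and Vtn, Kcnj8 and Abcc9, also used to define lung pericytes, lay at 0 to 0.268 CPM, while Pdgfrb, Cspg4 and Mcam were abundant. Of 12 macrophage markers Csf1r was called lower (6.64 to 14.8 against 13.9 to 17.2 CPM), and of 5 measured epithelial markers Scgb1a1 was called higher (0.214 to 0.416 against 0 to 0.0488). Among neutrophil genes S100a8 and Mmp8 had the most counts, 278 and 262 over the 12 libraries. S100a8 read 0.471 to 1.98 CPM in injured and 0.258 to 1.42 in uninjured BALF, and Mmp8 0.771 to 1.71 and 0.447 to 0.928. Retnlg, Ly6g, Elane and Cxcr2 were at 0 to 0.129 CPM. S100a9, with 21 counts, was at 0.0702 to 0.288 in injured and 0 in all uninjured libraries. The male libraries numbered 3 stood apart in both arms, where mesothelial markers summed to 200 and 227 CPM and the remaining 10 libraries held 29.4 to 78.7. Their epithelial markers summed to 29.1 and 29 CPM, beside 2.44 to 7.67. Most of that was the keratin genes Krt8 (13 and 12.5 CPM) and Krt18 (14.4 and 16). Epcam, Cdh1, Sftpc, Sftpb and Nkx2-1 lay at 0 to 0.371 CPM in all 12 libraries, so these sums do not mark epithelial cells. The part of these other cells in the results was not tested. In such bulk libraries, fewer cells of a type and less RNA per cell cannot be told apart.

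In injured BALF, the largest rises included genes of chemokines, leukocyte adhesion and nitric oxide synthesis, and 11 of 17 NF-kB pathway genes rose. Of genes of sterol synthesis 11 of 25 fell, of NRF2 antioxidant targets 6 of 29 and of heat shock genes 4 of 17. In the summed fit those 3 counts were 1, 0 and 0. Of 15901 genes tested, 541 (3.4%) were called at an edgeR adjusted p under 0.05, 311 of them higher (1.96%) and 230 lower (1.45%). Rises were larger than falls, with a median log2 fold change of 0.97 among genes called higher and -0.52 among those called lower, beside 0 over all genes tested. At least 2-fold, 150 genes rose and 38 fell, and at least 4-fold 72 rose and 9 fell. Injured and uninjured libraries did not overlap for 214 of the genes called higher and 111 of those called lower (1.97% and 1.36% of all genes tested did not overlap upward and downward). The count of calls was 105 (80 higher, 25 lower; 0.624% of genes) in the summed fit and 3521 (1776 higher, 1745 lower; 24.1%) in the blocked fit, 198 (1.18%) in the summed and blocked fit, and 746 (4.69%) with the same block over all 36 libraries. Calls were followed singly for 165 called genes: those of the naming rule, all called list members and those in the time difference. Leaving out 1 library ended the call in at least 1 case for 35 of these 165. The 15 largest rises among genes of moderate or high level were those of Nos2, Cxcl2, Cxcl1, Ccl20, Cxcl5, Steap4, Cxcl3, Lcn2, Ccl2, Ptx3, Slc7a2, Kcnn3, Icam1, Serpinb2 and Saa3. The 10 largest falls were those of Nr4a3, Ramp3, Pmvk, Chst1, Osgin1, Fgl2, Cbarp, Eps8, Gfra1 and Srxn1.

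**Figure D1:**
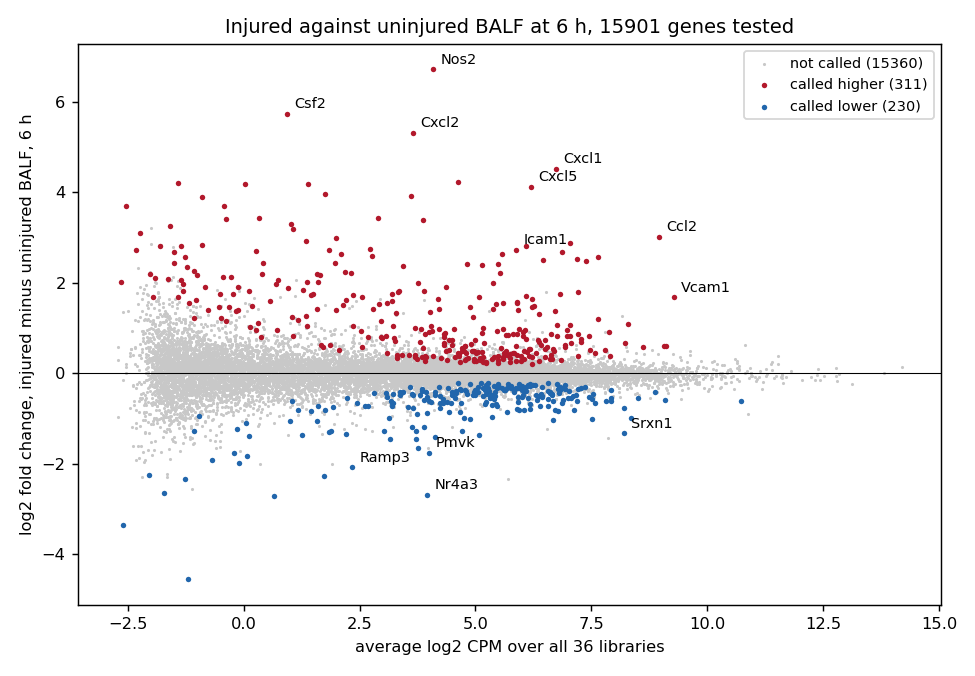
Log2 fold change of injured against uninjured BALF at 6 h (y axis) against the average log2 CPM over all libraries (x axis), 1 point per gene, with the 311 genes called higher in red, the 230 called lower in blue and the rest in grey. The largest changes are rises, and Nos2, Cxcl2 and Cxcl1 lead the genes of moderate level.

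The list of neutrophil CXC chemokines, most of which act through the receptor CXCR2, had the highest median of any list. Of 6 measured members, 4 rose and 2 (Ppbp and Pf4, platelet chemokines) were not called, with a list median of 3.77. Cxcl1 (chromosome 5, 90891241 to 90893115, GRCm38) read 5.19, 9.55 and 67.1 CPM as lowest, median and highest of the uninjured libraries and 324, 373 and 555 of the injured ones, with 0.152 to 3.05 in media. The high uninjured value was that of female replicate 3, and the arms did not overlap. The log2 fold change was 4.52 ± 0.77 (± standard error; edgeR adjusted p = 0.00046). Cxcl2 (90903871 to 90905938 on the same chromosome) read 0.416, 1.65 and 3.13 CPM in uninjured and 38.4, 61.5 and 95.8 in injured BALF, and 0 to 0.15 in media, so that its lowest injured library was far above every uninjured one. Its edgeR log2 fold change was 5.32 ± 0.45 (adjusted p = 1.4e-08). Cxcl3 went from a median of 3.12 to 30.6 CPM and Cxcl5 from 6.03 to 101, with changes of 3.42 ± 0.56 and 4.12 ± 0.78. These 4 genes lie in 1 cluster on chromosome 5. Cxcl2 and Cxcl3 stayed called in the summed fit, while the edgeR adjusted p rose to 0.082 for Cxcl1 and 0.15 for Cxcl5.

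**Figure D2:**
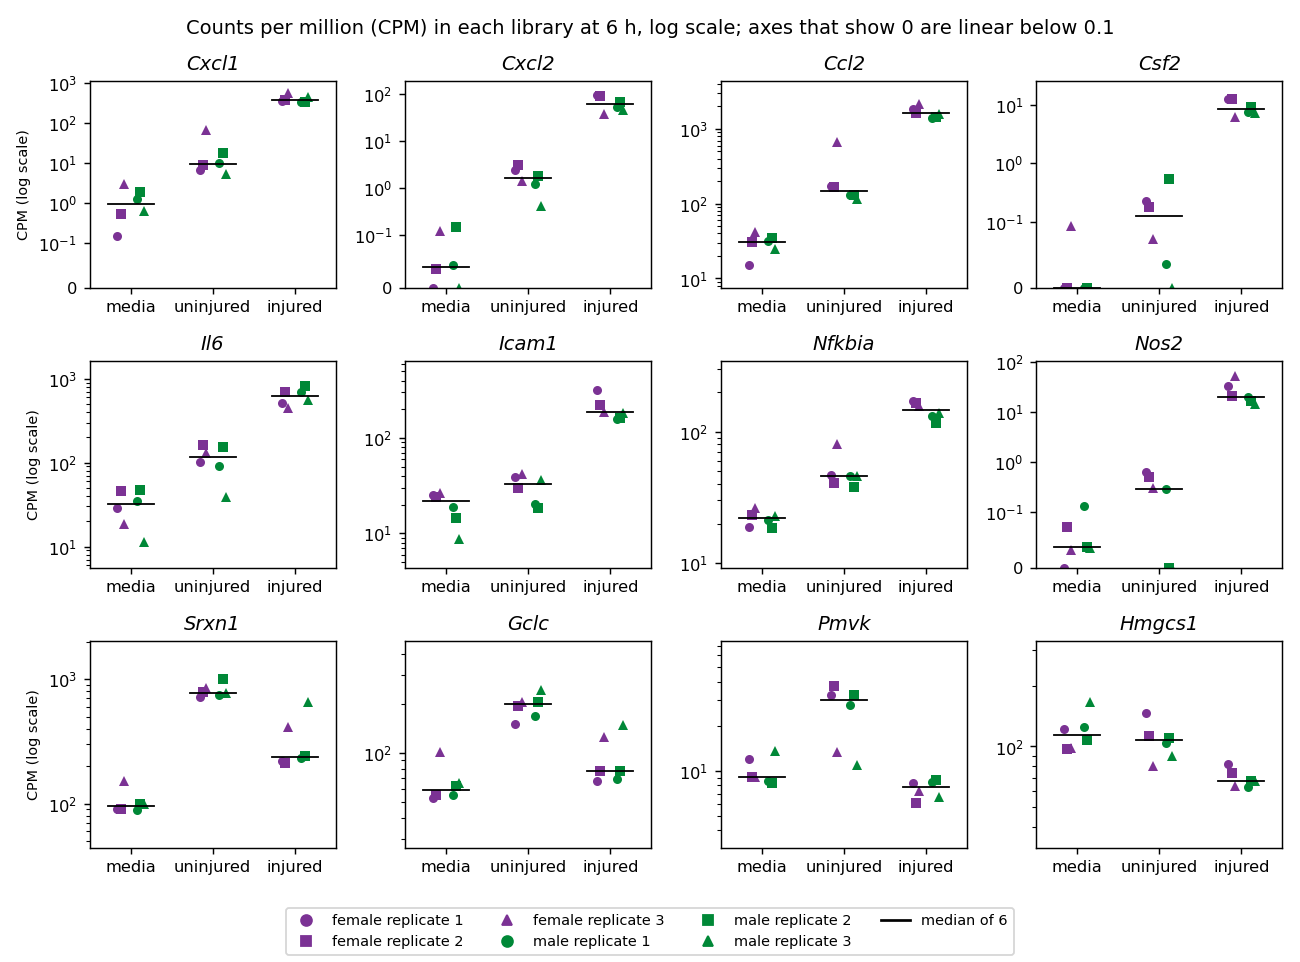
CPM (y axis, log scale) of 12 genes in each of the 18 libraries at 6 h, by treatment (x axis), with sex as colour, replicate number as symbol and the median of 6 as a bar. Chemokines, Csf2, Il6, Icam1, Nfkbia and Nos2 are higher in every injured than in every uninjured library, whereas Srxn1, Gclc and Pmvk are lower in every injured library and Hmgcs1 overlaps.

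Among chemokines for monocytes, lymphocytes and dendritic cells, 7 of 19 measured members rose and none fell, with a list median of 0.9. Ccl2, the main monocyte chemokine, had 116, 150 and 672 CPM in uninjured and 1400, 1610 and 2190 in injured BALF, and its neighbour Ccl7 had medians of 44.4 and 403. Female uninjured replicate 3 was again the highest uninjured library of Ccl2. Cxcl16, which binds CXCR6 on T cells, read 12.3 to 19.7 CPM in uninjured and 70.4 to 102 in injured BALF, a tight separation with an edgeR log2 fold change of 2.42 ± 0.22 (adjusted p = 3.1e-08). Ccl20, the ligand of CCR6, rose by 4.23 ± 0.70 from a median of 2.72 CPM, while media held a like median of 2.81. Cxcl10, an interferon-inducible chemokine, rose by 3.20 ± 0.41, Ccl9 by 2.24 ± 0.28 and Ccl5 by 1.98 ± 0.38, from medians of 0.875, 1.72 and 1.14 CPM. In the summed fit 5 of the 7 stayed called (Ccl5 and Ccl7 did not, at edgeR adjusted p = 0.14 each), and in the blocked fit 12 of 17 rose and 1 fell. The summed and blocked fit called 5 of 19, all higher.

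Of the 6 colony-stimulating factors, which drive the growth of myeloid and other progenitors, 2 rose, 1 fell and 3 were not called. Csf2, the granulocyte and macrophage factor, was nearly unread in uninjured BALF, with 23 counts over 6 libraries and 1 library at 0. In injured BALF it reached 6.08, 8.31 and 12.6 CPM and 1329 counts in all, for an edgeR log2 fold change of 5.74 ± 0.69 (adjusted p = 9.6e-06). Csf3, the granulocyte factor, rose from a median of 0.684 to 11.1 CPM. Kitl, the ligand of KIT, moved the other way, from 41.9 to 58.2 CPM in uninjured to 20.4 to 31.8 in injured BALF. Its fall of 0.98 ± 0.23 in log2 units was lost in the summed fit (edgeR adjusted p = 0.29).

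The IL-6 family had 3 of 11 members called, all higher. Il6 read 39.1, 116 and 160 CPM in uninjured, 447, 623 and 811 in injured BALF and 11.2 to 46.6 in media. Lif, a cytokine of the same receptor family, ran in parallel from a median of 86.5 to 570 CPM, and Osmr, a receptor subunit for oncostatin M, rose by a smaller 0.91 ± 0.15. Summing libraries 1 and 2 took the edgeR adjusted p of Il6 to 0.06 and that of Osmr to 0.056, while Lif stayed called at 0.027. Of 15 IL-1 family, TSLP and receptor genes 3 rose: Il1a, an alarmin, from a median of 0.386 to 5.49 CPM, Il13ra2, a decoy receptor for IL-13, from 0.453 to 2.05, and Tslp, which acts on dendritic cells, from 4.43 to 14.3. All 15 had a positive fold change (median 0.6), and 8 of 13 rose in the blocked fit but 1 of 15 in the summed and blocked fit. Tslp alone of these 3 was called in the summed fit. Jak2, the kinase of many cytokine receptors, was the single called member of 11 JAK-STAT genes, at 0.53 ± 0.10.

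Adhesion molecules that leukocytes use to roll and stop were strongly higher. Icam1, bound by leukocyte integrins, gave the lowest p-value of all genes. It read 18.7, 32.8 and 42.3 CPM in uninjured, 158, 185 and 320 in injured BALF and 8.76 to 26.3 in media, and the edgeR log2 fold change was 2.73 ± 0.20 (adjusted p = 1.7e-09). Vcam1 was much more abundant and went from 359 to 487 CPM to 1040 to 1720. The selectins Selp and Sele, best known from activated endothelium, rose from medians of 19.1 to 96.8 and of 2.35 to 15.5 CPM. Over the same libraries the endothelial gene Pecam1 read 6.01 to 32.2 CPM in uninjured and 6.41 to 35.3 in injured BALF, with a fold change of 0 ± 0.60. The sum of the 10 endothelial markers read 76.6 to 278 CPM in uninjured and 62.2 to 259 in injured BALF. It was lower in the injured library in 6 of 6 same-numbered pairs, which cannot be taken as independent. In all, 4 of 12 members rose and 8 were not called. Sele was the 1 of these 4 that the summed fit did not call (edgeR adjusted p = 0.15).

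The NF-kB pathway itself moved together: 11 of 17 subunit, kinase and IkB genes rose, none fell and the median was 0.74. Nfkbia, which encodes the inhibitor IkBα, read 37.8, 45.7 and 80.6 CPM in uninjured and 116, 147 and 172 in injured BALF, without overlap. The highest uninjured library was female replicate 3, where the next lay at 46.8. The edgeR log2 fold change was 1.56 ± 0.17 (adjusted p = 1.1e-06). The IkB family genes Nfkbiz, Nfkbie, Bcl3, Nfkbid and Nfkbib rose by 1.38 ± 0.26, 1.15 ± 0.18, 0.99 ± 0.23, 0.96 ± 0.28 and 0.49 ± 0.10. Among DNA-binding subunits, Nfkb1 rose by 0.96 ± 0.14, Nfkb2 by 0.74 ± 0.10 and Relb by 0.63 ± 0.13. The kinases Map3k8 and Ikbke rose by 1.52 ± 0.20 and 0.89 ± 0.18. Rela, at a fold change of 0.13, and Rel, at 0.27, were not called. In the summed fit 6 of the 11 stayed, and the blocked fit called 15 higher and 2 lower. The summed and blocked fit called 8 higher and none lower. Nfkbid was lost without female uninjured replicate 1 (edgeR adjusted p = 0.161).

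Of 21 genes that restrain inflammation through ubiquitin chains or mRNA decay, 10 rose and 1 fell. Tnfaip3 (A20), a ubiquitin-editing enzyme that ends NF-kB signalling, went from 16.3 to 35.9 CPM to 89.7 to 203. Its partner Tnip1 showed 1 of the tightest differences, 32.2 to 41.4 against 76 to 134 CPM, with an edgeR log2 fold change of 1.56 ± 0.12 (adjusted p = 3e-09). Zc3h12a, an endoribonuclease of inflammatory mRNAs, had medians of 25.2 and 113 CPM, and Birc3, a ubiquitin ligase of the TNF receptor complex, 21.7 and 41.2. The mRNA-decay factors of the Zfp36 family diverged. Zfp36l1 rose by 0.93 ± 0.16 and Zfp36l2 fell by 0.82 ± 0.15, from 198 to 273 CPM to 104 to 165, while Zfp36 itself had a fold change of -0.11 and was not called. Zfp36l2 remained called in the summed fit (edgeR adjusted p = 0.033), while Zfp36l1 did not (0.11).

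Receptors and sensors of microbial and damage signals were mostly not called, with 3 of 23 higher. Tlr2, the receptor of lipoproteins, read 3.91 to 7.71 CPM in uninjured and 19.2 to 34.6 in injured BALF (log2 fold change 2.36 ± 0.30). Nlrp3, an inflammasome sensor, went from a median of 0.292 to 1.64 CPM. Tank, an adaptor of the pathway, rose by 0.55 ± 0.11, and Tlr4, at a fold change of 0.17, was not called. Of 24 TNF receptor and death-signalling genes 5 rose, led by the death receptor Fas, whose 14.1 to 21.7 CPM in uninjured became 36.9 to 70.2 in injured BALF (1.69 ± 0.16). Cd40, Casp4, Tnfrsf9 and Tnfrsf1b were the others. Tlr2 and Fas were called in the summed fit, while Nlrp3, Tank, Cd40, Casp4, Tnfrsf9 and Tnfrsf1b were not, at edgeR adjusted p from 0.051 to 0.31. Tnfrsf9 was also lost without male injured replicate 1 (0.142).

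Interferon-stimulated genes leaned upward with few calls. Of 36 measured members 35 had a positive fold change and the median was 0.81, yet 6 were called, all higher. Gbp2, an interferon-induced GTPase, read 7.02, 11.5 and 15.3 CPM in uninjured and 23.6, 40 and 67.2 in injured BALF. Gbp5, a member of the same family, rose from a median of 0.19 to 1.95 CPM, while Gbp7, Parp14, Ifi47 and Ifit2 rose by 0.49 to 1.43 in log2 units. The libraries disagreed in this list: the median level of its members, relative to the mean of media, ran from -0.01 to 1.21 in injured and from -0.39 to 0.26 in uninjured libraries, and these ranges overlap. In the blocked fit 17 rose and in the summed fit only Gbp2 did, while 2 rose in the summed and blocked fit. Without 1 library the edgeR adjusted p reached 0.0843 for Gbp7 (male injured replicate 1) and 0.0672 for Ifit2 (female injured replicate 2). All 16 class I antigen presentation genes had positive values (median 0.38). Of these H2-Q4 was called, at 1.04 ± 0.29, and since class I genes are near-identical copies its count is uncertain, and without female injured replicate 1 it was not called (0.138). The blocked fit called 11 of 15, and neither the summed fit nor the summed and blocked fit called any of 16.

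**Figure D3:**
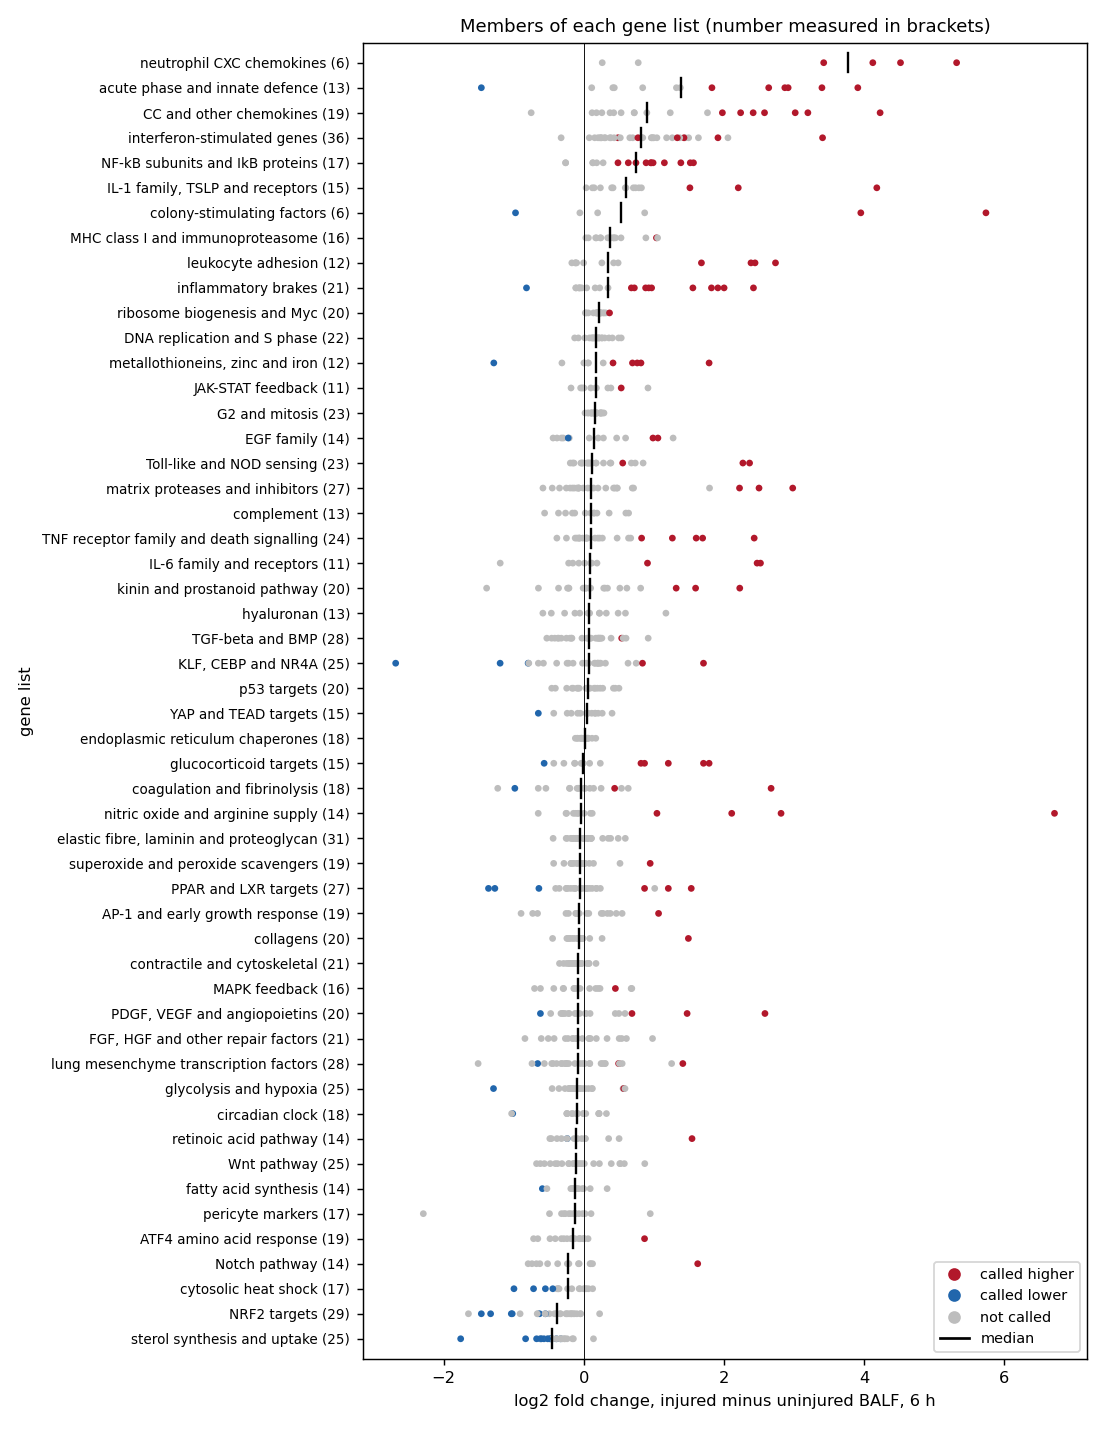
Log2 fold change (x axis) of every measured member of each of the 52 gene lists (y axis, ordered by median), with members called higher in red, lower in blue and not called in grey. The neutrophil chemokines have the highest median at 3.77 and sterol synthesis the lowest at -0.45.

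Nitric oxide synthesis stood out through few genes. Nos2, the inducible synthase (chromosome 11, 78920787 to 78960254), had the largest rise among genes of moderate or high level. It read 0, 0.291 and 0.641 CPM in uninjured BALF, with 41 counts in all and 2 libraries at 0, and 14.6, 20.2 and 51.7 in injured BALF, with 3720 counts. The edgeR log2 fold change was 6.72 ± 0.74 (adjusted p = 1.4e-06). Slc7a2, which imports its substrate arginine, went from 10.9 to 65.4 CPM to 129 to 284, and Gch1, which makes its cofactor tetrahydrobiopterin, from 8.76 to 14.8 to 18.4 to 25.8. Arg2, an arginase, was the other called member of 14 and lay under 0.7 CPM throughout. Gch1 and Arg2 were not called in the summed fit (edgeR adjusted p = 0.064 and 0.23), and Nos2 and Slc7a2 were. Arg2 was also lost without female injured replicate 3 (0.161).

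Acute phase and innate defence genes had 6 of 13 members higher and 1 lower. Ptx3, a soluble pattern recognition protein, went from 22, 38.6 and 102 CPM in uninjured to 238, 336 and 452 in injured BALF, where media lay at 12.7 to 67.1. Steap4, a metalloreductase, rose by 3.91 ± 0.58, Lcn2, which binds bacterial iron carriers, by 3.40 ± 0.74, and Saa3, a serum amyloid, by 2.64 ± 0.53. Lcn2 was low in 1 injured library, male replicate 3, at 2.3 CPM against 7.58 to 12.8 in the other 5. Serpina3i and Serpina3g were also called higher, but they belong to a family of near-identical genes, and Serpina3g was lost without male uninjured replicate 3 (edgeR adjusted p = 0.0829). Fgl2, a prothrombinase-like protein, fell from a median of 27.6 to 9.14 CPM. Steap4 was the single member called in the summed fit, at an edgeR adjusted p of 0.04, and the other 6 lay between 0.077 and 0.34. The blocked fit called 8 of 12 higher and 1 lower, and the summed and blocked fit called 0 of 13. Of 12 metallothionein, zinc and iron genes 5 rose and 1 fell. Mt2, a metal-binding protein, read 67.9 to 127 CPM in uninjured and 182 to 431 in injured BALF, and Slc11a2, an iron importer, 48.7 to 90 and 93.7 to 119. Slc40a1, the iron exporter, went from a median of 15 to 4.92 CPM and was called at an edgeR adjusted p of 0.049 (0.159 without male injured replicate 1). Mt2 and Slc11a2 were called in the summed fit and Slc40a1 was not (0.38). Complement genes gave no call among 13, where 3.4% of all genes tested were called.

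Genes that act on clotting, vessels and matrix changed one by one. Serpinb2, an inhibitor of plasminogen activators, read 65.9, 83.4 and 115 CPM in uninjured and 418, 539 and 733 in injured BALF, beside 3.19 to 30.1 in media. Thbd (thrombomodulin), an anticoagulant receptor, fell from a median of 837 to 377 CPM. A single uninjured library lay at 341, so the arms overlapped, and the call was lost in the summed (edgeR adjusted p = 0.33) and blocked (0.055) fits. The kinin receptors Bdkrb1 and Bdkrb2 rose by 2.22 ± 0.31 and 1.59 ± 0.38, and the prostaglandin E synthase Ptges by 1.32 ± 0.21. Bdkrb1 stayed called in the summed fit and the other 2 did not (0.17 for Bdkrb2 and 0.066 for Ptges). Bdkrb2 stood at 0.0549 without female injured replicate 1. Among 27 matrix proteases and inhibitors, Mmp9, Mmp13 and Mmp10 rose by 2.98 ± 0.44, 2.50 ± 0.42 and 2.22 ± 0.51, from medians of 1.16, 52.1 and 34.8 to 8.41, 297 and 147 CPM. Mmp10 was not called in the summed fit (0.16).

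Of growth factor and patterning genes, Pdgfb, a ligand of the receptor used to select the cells, rose from a median of 4.24 to 24.2 CPM (2.58 ± 0.41), and Vegfc, a lymphatic growth factor, from 20.4 to 63.5. Nrp1, a co-receptor of VEGF, fell from 329 to 426 CPM to 239 to 277. Pdgfb and Nrp1 were lost in the summed fit (edgeR adjusted p = 0.065 and 0.13) and Vegfc was not. Ptch1, the Hedgehog receptor and itself a Hedgehog target, went from 26.5 to 36.3 CPM to 58.3 to 101, with media at 27.1 to 35.7. Foxf1, a transcription factor of lung mesenchyme, rose by 0.50 ± 0.10, and both stayed called in the summed fit. No member of the Wnt list (25 measured) or of the repair factor list (21) was called, where 3.4% of all genes tested were. TGF-beta and BMP genes gave 1 call of 28, for Smad3, a signal transducer, whose edgeR adjusted p was 0.0522 without male injured replicate 2 and 0.35 in the summed fit. Kcnn3, a calcium-activated potassium channel outside the lists, went from 1.66, 2.84 and 4.49 CPM to 12.1, 19.6 and 27.6 (2.75 ± 0.31).

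Falls were led by Nr4a3, an inducible nuclear receptor, which had 12.9, 76 and 101 CPM in uninjured and 6.2, 9.99 and 14.3 in injured BALF, against 1.84 to 7.72 in media. Ramp3, a partner of the adrenomedullin receptor, went from a median of 12.9 to 4.51 CPM, and Crem, a cAMP-responsive factor, from 30.6 to 11.5. Eps8, an actin regulator, and Cbarp, a calcium channel regulator, fell by 1.37 ± 0.17 and 1.41 ± 0.18 and stayed called in the summed fit, as did Crem. Nr4a3 and Ramp3 did not (edgeR adjusted p = 0.15 and 0.071). Klf4 fell by 0.80 ± 0.14 (0.077 in the summed fit), whereas Cebpd, a factor of the acute phase response, rose by 1.71 ± 0.25 and stayed called. Gfra1, a receptor for GDNF, fell by 1.35 ± 0.36 and was not called in the summed fit (0.29) or without male uninjured replicate 1 (0.114). Of the clock genes, Arntl alone was called among 18, with a fall of 1.02 ± 0.18 that the summed fit did not call (0.17).

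NRF2 is the transcription factor of the antioxidant response, and its targets make glutathione and NADPH. Of 29 measured targets 6 fell and none rose, and 28 had a negative fold change (median -0.39). Srxn1 (sulfiredoxin, which restores peroxiredoxins; chromosome 2, 152105516 to 152111376) read 717, 779 and 1010 CPM in uninjured and 210, 236 and 650 in injured BALF. The injured value of 650 was that of male replicate 3. In media Srxn1 lay at 88.5 to 150 CPM, so injured BALF was between media and uninjured BALF. The edgeR log2 fold change was -1.33 ± 0.32 (adjusted p = 0.015). Gclc and Gclm, the subunits of glutamate-cysteine ligase, went from medians of 198 to 77.7 and of 387 to 136 CPM, with media at 59.2 and 94.2. Osgin1, Gsr (glutathione reductase) and Pgd (of the pentose phosphate pathway) fell by 1.46 ± 0.29, 0.63 ± 0.14 and 0.55 ± 0.14. Nqo1, another classic target, was not called, at -0.65 ± 0.42. The libraries numbered 3 differed here: the list median relative to media was 1.03 and 1.13 in the injured female and male libraries 3, against 0.22 to 0.48 in the other 4 injured ones and 0.78 to 1.26 in uninjured ones. None of the 6 was called in the summed fit (edgeR adjusted p = 0.17 to 0.52). Without male injured replicate 1 it was 0.0649 for Srxn1, 0.065 for Gclc, 0.113 for Pgd and 0.163 for Gclm. In the blocked fit 18 fell and 1 rose, and in the summed and blocked fit 0 of 29 were called.

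**Figure D4:**
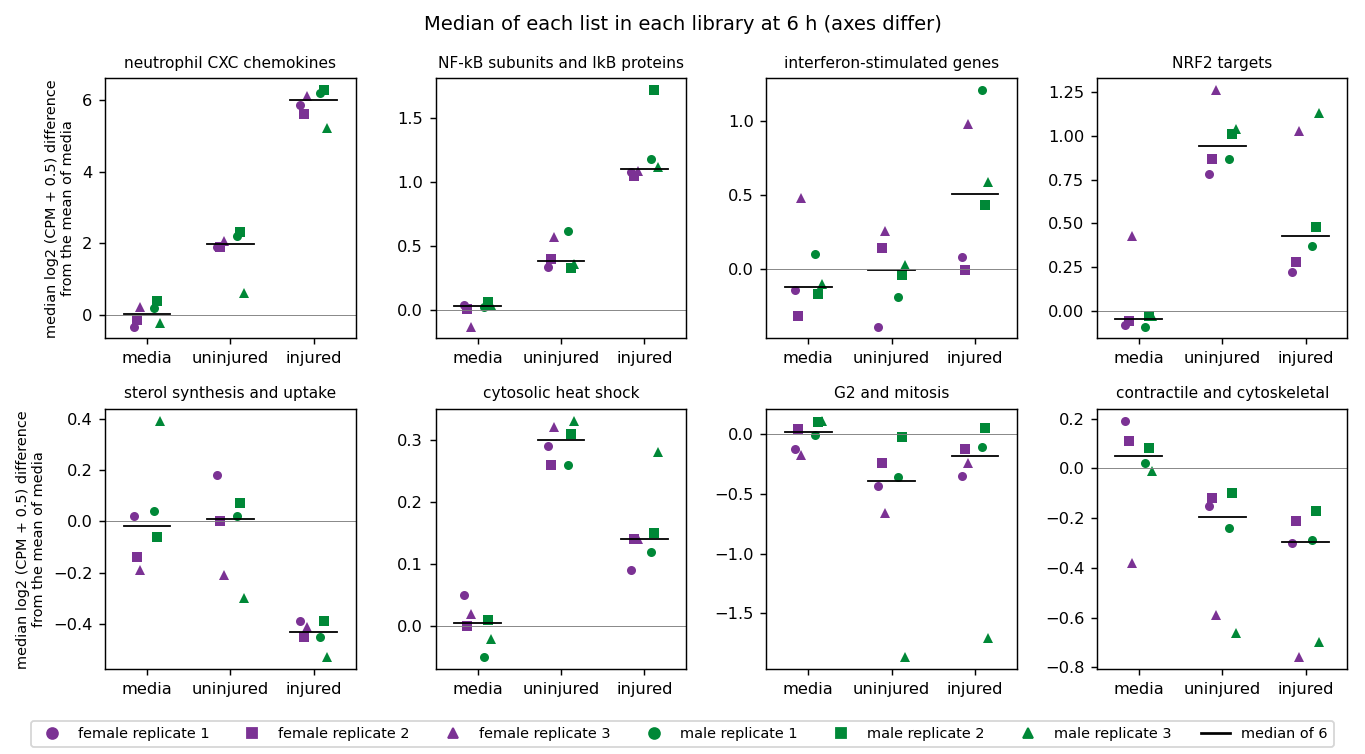
Median over the members of 8 lists of the log2 (CPM + 0.5) difference from the mean of media (y axis, scales differ), for each of the 18 libraries at 6 h by treatment (x axis), with sex as colour, replicate number as symbol and a bar at the median of 6. NRF2 targets lie at 0.78 to 1.26 in uninjured and 0.22 to 1.13 in injured BALF, and sterol genes at -0.3 to 0.18 and -0.53 to -0.39.

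The sterol list, which holds mostly enzymes of cholesterol synthesis, was the list of lowest median (-0.45), with 11 of 25 members lower, none higher and 24 negative. Pmvk (phosphomevalonate kinase; chromosome 3, 89454541 to 89469013) changed most, from 11, 30 and 37.5 CPM in uninjured to 6.1, 7.8 and 8.74 in injured BALF, while media lay at 8.33 to 13.5. Its edgeR log2 fold change was -1.76 ± 0.23 (adjusted p = 1.2e-05), and it was the single member called in the summed fit. The other falls given here were smaller. Msmo1 and Insig1 fell by 0.83 ± 0.13 and 0.67 ± 0.12, and Hmgcs1, Sqle, Stard4, Cyp51, Mvk and Fdft1 by 0.39 to 0.62. Hmgcs1 read 79.7 to 147 CPM in uninjured, 63 to 81.5 in injured BALF and 96.7 to 167 in media, with a small overlap of the BALF arms. The list median relative to media was -0.53 to -0.39 in the 6 injured libraries and -0.3 to 0.18 in the 6 uninjured ones, without overlap. In the blocked fit 21 of 25 fell, and in the summed and blocked fit 2 of 25. Among the weaker calls, the edgeR adjusted p without 1 library reached 0.165 for Fdft1 (male uninjured replicate 2), 0.131 for Mvk (male injured replicate 1) and 0.0892 for Cyp51 (female uninjured replicate 1). Dgat1, which makes triglycerides, fell by 1.27 ± 0.15 and Scd2, a fatty acid desaturase, by 0.59 ± 0.16, the latter lost in the summed fit (0.26) and without male uninjured replicate 1 (0.102). Ch25h, which makes 25-hydroxycholesterol, rose by 1.53 ± 0.33 (edgeR adjusted p = 0.0058, and 0.2 in the summed fit), from 22.6 to 63.9 CPM to 77.7 to 164.

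Cytosolic heat shock genes had 4 of 17 members lower and none higher. Relative to the mean of media, the list median was 0.09 to 0.28 in injured, 0.26 to 0.33 in uninjured and -0.05 to 0.05 in media libraries. Injured BALF thus lay between media and uninjured BALF, with a small overlap of the BALF arms. Hspa1a and Hspa1b, near-identical inducible chaperone genes whose counts are hard to separate, fell by 1.00 ± 0.21 and 0.72 ± 0.14, and Bag3 and Hspb8, of the chaperone-assisted disposal of proteins, by 0.55 ± 0.14 and 0.44 ± 0.08. None was called in the summed fit (edgeR adjusted p = 0.087 to 0.19), and Bag3 was lost without male injured replicate 1 (0.065). In the blocked fit 10 fell and in the summed and blocked fit 2. Chaperones of the endoplasmic reticulum were not called (0 of 18, where 3.4% of all genes tested were).

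Identity, contractile and most matrix genes gave no calls. Since 3.4% of all genes tested were called, lists of this size would hold few or none at that share. Pericyte markers had 0 of 17 called (median -0.13), contractile genes 0 of 21 (-0.08), elastic fibre, laminin and proteoglycan genes 0 of 31 and hyaluronan genes 0 of 13. Pdgfrb read 392 to 612 CPM in uninjured and 256 to 610 in injured BALF, Cspg4 (NG2) 88.5 to 263 and 89.6 to 270, Acta2 5860 to 9730 and 5870 to 9690, and Rgs5 2.29 to 14.4 and 2.67 to 14.7. Cd248 (endosialin), a surface protein of pericytes and fibroblasts, read 280, 339 and 445 CPM in uninjured, 175, 241 and 325 in injured BALF and 310 to 559 in media. It was lower in the injured library in 6 of 6 same-numbered pairs, with an edgeR log2 fold change of -0.49 ± 0.21 (adjusted p = 0.275, 0.354 in the summed fit and 1.15e-06 in the blocked fit). Of 20 collagen genes 1 was called: Col5a3, a minor fibrillar collagen, went from 61.6, 74 and 110 CPM to 198, 221 and 253 (1.49 ± 0.16), with media at 26.7 to 41. Col1a1 was not called, at -0.24 ± 0.20, though lower in 6 of 6 same-numbered pairs. As libraries 1 and 2 were close, the pairs cannot be taken as independent for either gene. How many of all genes tested have 6 of 6 was not counted. In the blocked fit, which called 24.1% of all genes tested, the small differences gave calls. Contractile genes had 9 lower and 1 higher, the 16 pericyte markers 5 lower and 1 higher, and collagens 7 lower and 2 higher. The summed and blocked fit called 0 contractile genes, 0 pericyte markers and 1 collagen, higher. Cell cycle genes gave none, but all 23 G2 and mitosis genes (median 0.16) and 20 of 22 S phase genes (0.18) were positive, and 13 and 14 rose in the blocked fit, but 0 of 23 and 0 of 22 in the summed and blocked fit. The male libraries 3 were the lowest in G2 and mitosis genes in each arm, at -1.71 and -1.87 relative to media.

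Effects in female and male libraries, which share no sample, were compared in the same fit. All 311 genes called higher and all 230 called lower had the called direction in each sex, which the mean of the sexes partly fixes. Median log2 fold changes were 0.92 in females and 1.03 in males for genes called higher, and -0.53 in both for genes called lower. A test of the difference between the sexes called 0 genes (0% of 15901) with edgeR and 1 with DESeq2, and 110 had an unadjusted edgeR p under 0.05. That is less than the share of 0.05 that chance alone would give, so the fit may overstate the spread of this difference. In the blocked fit 585 of 14605 genes had an unadjusted edgeR p under 0.05 and 0 were called. The absence of calls therefore does not show that the sexes agree. The standard error of that difference had a median of 0.37 for genes called higher, which limits the size of a sex difference that 3 libraries per arm could show. Female uninjured replicate 3 was the highest uninjured library for 38.6% of genes called higher (23.2% of all tested), and male injured replicate 3 the lowest injured one for 39.9% (18.7% of all).

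**Figure D5:**
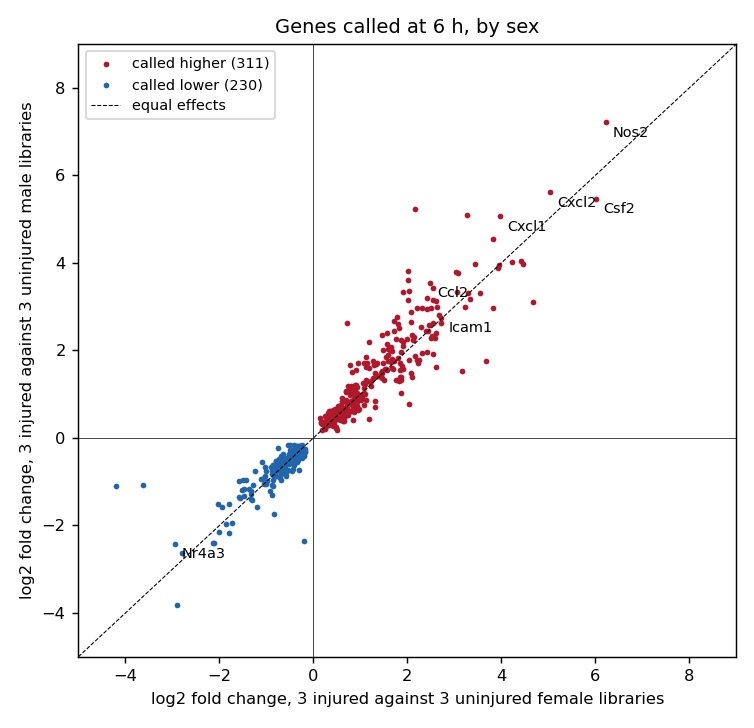
Log2 fold change of injured against uninjured BALF at 6 h in the female libraries (x axis) and in the male libraries (y axis) for the 311 genes called higher (red) and the 230 called lower (blue), with a dashed line where both are equal. Most points lie near the line, the largest difference between the sexes is 3.07 log2 units among genes called higher and 3.1 among those called lower, and every called gene has the same direction in both sexes.

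After 24 h, in separate libraries, 4.43% of genes were called. Of the genes called at 6 h, 160 of 311 higher ones were again called higher and 1 was called lower, and 39 of 230 lower ones were again called lower. The fold change at 24 h had the sign of that at 6 h for 287 of the 311 and 173 of the 230. Median fold changes were 0.97 at 6 h and 0.66 at 24 h for the first set, and -0.52 and -0.16 for the second. Since both sets were chosen by their 6 h values, which draws those medians away from 0, the smaller medians at 24 h are no test of a change. The effect itself differed between times for 37 genes (0.233% of those tested) at an edgeR adjusted p under 0.05, of which 11 were called higher and 14 lower at 6 h. Icam1 rose by 2.73 ± 0.20 at 6 h and 0.98 ± 0.19 at 24 h, a difference of -1.76 ± 0.27. Nrg1, a ligand of the EGF receptor family, had an effect of 0.99 ± 0.14 at 6 h and -0.43 ± 0.14 at 24 h. Crem, Bin1 (a membrane-shaping protein) and Lrrk2 (a kinase) were lower in injured BALF at 6 h, and their effects at 24 h were 0.28 ± 0.16, 0.26 ± 0.09 and 0.25 ± 0.09, none of which was called at that time. Nfkbia kept its effect, with 1.56 at 6 h and 1.55 at 24 h. With libraries 1 and 2 summed, edgeR called no time difference (791 genes had an unadjusted p under 0.05), and leaving out 1 library moved the count to between 7 (without male uninjured 24 h replicate 1) and 72 (without male injured 6 h replicate 3).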

How the data were processed

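RNA of cultured mouse lung pericyte-like cells was sequenced with a stranded mRNA kit, per the labels' protocols. The authors deposited whole-number counts per gene (48795 Ensembl identifiers, 36 libraries). STAR 2.5.2b, RSEM 1.2.31, DESeq2 and GRCm38 are named per the submitters' processing notes, without their roles, so counts may be rounded estimates that share reads among near-identical genes. Symbols came from GENCODE M21 for 99.1% of identifiers. Differences were tested with edgeR 4.0.16 (R 4.3.3; robust quasi-likelihood test, TMM scaling) fitted to all 36 libraries with 1 coefficient for each of the 12 combinations of fluid, sex and hours (24 residual degrees of freedom). Female and male effects were averaged. The expression filter kept 15901 genes, and Benjamini-Hochberg adjusted p under 0.05 was called. Standard errors are approximate: each is the size of the log2 change over the root of its F statistic.

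Named genes were the 15 largest rises and 10 largest falls among called genes of at least 2 log2 CPM, the 4 called members of lowest p in each list (2 of lowest p where none was called), the 5 leading time differences and a fixed set. Other list members are given by their values and were chosen after these were seen. Members, the 52 gene lists, the tests and the alternatives were chosen with earlier results of these data known. Same-numbered injured and uninjured libraries deviated together in all 6 pairs (correlation 0.33 to 0.65 across genes), and each library correlated best with its own number, so the numbers were taken to pair the samples. Alternatives, given at the end, were DESeq2 1.42.0, other scalings, filters, designs and thresholds, a replicate block, summing libraries 1 and 2, and leaving libraries out. The gene tests were run on simulated counts with known changes. edgeR recovered 28 of 50 genes changed 1.5-fold, 42 of 50 changed 2-fold and 50 of 50 changed 8-fold, with 13 false calls in the run. Simulated libraries were drawn independently, so the run does not cover the closeness of libraries 1 and 2 or the pairing. Some single members of the lists are not reported here.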

Additional observations from a re-analysis of the deposited data

Results flagged for a closer look

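Of 276 groups of 6 libraries tested for a library far from the other 5 (chance gives about 1 in 20), 22 had such a library. In female uninjured replicate 3, Ccl2 (672 CPM), Nfkbia (80.6), Ptges (131) and Slc11a2 (90) were far above the other uninjured libraries, and all 4 rose in injured BALF. Among injured libraries, male replicate 3 was far low for Lcn2 (2.3 CPM) and Mt2 (182) and far high for Vegfc (81.2) and Hspa1a (12.5), female replicate 3 low for Ankrd37 (0.25) and high for Bin1 (151), female replicate 1 high for Cxcl16 (102), and male replicate 1 high for Nrp1 (277). In uninjured BALF, male replicate 3 was far high for Hspa1a (17.5 CPM) and low for Osmr (108), and male replicate 1 high for Mmp9 (2.12).

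Marker sums also stood far from the rest in the male libraries 3. The epithelial sum, mostly Krt8 and Krt18, was 29.1 CPM (injured) and 29 (uninjured), and the mesothelial sum 200 and 227. In injured BALF the fibroblast sum (1040) and the erythroid sum (0.111) also stood far from the rest. The lymphocyte sum of male uninjured replicate 2 was far below the others, at 0.0488 CPM. No lymphocyte or erythroid marker passed the expression filter, so these 2 sums lie near the floor and rest on very few counts.

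The effect of injured BALF differed between times by edgeR's test for Nrg1 (24 h minus 6 h -1.42), Crem (1.48), Icam1 (-1.76), Bin1 (0.81) and Lrrk2 (0.84), the 5 of lowest p among 37.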

How the results depend on the processing

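Libraries 1 and 2 of each group were closer to each other than to library 3, and the count of 541 calls fell where they were joined or left out: 105 with both summed, 198 summed with a replicate block (chosen after seeing the data), 83 without all libraries numbered 1 and 70 without number 2. Without number 3 it rose to 749. With the replicate number as a block it was 3521 within the 12 libraries and 746 over all 36. An adjusted p under 0.01 gave 283 and a 2-fold minimum 188. Leaving out 1 library gave 373 (without male injured replicate 1) to 575 (without female uninjured replicate 3). The other scalings, filters and designs run gave 414 to 760. Of the 165 called genes followed singly, 55 were called in the summed fit and 163 in the blocked fit of 12 libraries. None reversed direction in any alternative run. The sex difference stayed at 0 in all alternatives run except DESeq2, with 1. The 37 time differences were 107 with DESeq2, 68 with the block over 36 libraries, 7 at an adjusted p under 0.01, 0 with libraries 1 and 2 summed, 0 without all numbered 1 or all numbered 2 (edgeR; 791, 870 and 594 at an unadjusted p under 0.05), 236 without number 3 and 7 to 72 when 1 library was left out. Fits with libraries summed or left out hold fewer samples. Those without number 1, 2 or 3 leave out equally many libraries, yet gave 83, 70 and 749 calls. The cause of these differences was not tested.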
